A study of Mus musculus with 4 samples.

Results

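The CD4 T cells described here were T cells of mouse colon tumours in which a Cd4 transcript was seen and no transcript of Foxp3 or of the Il17 and Il22 genes. They were 547 of the 3172 Cd3-positive cells (17.2%, exact binomial 95% interval 15.9 to 18.6) and 3.85% of the 14198 cells that passed the quality limits. The choice was made from the measured counts themselves. A member held at least 500 UMIs (unique molecular identifiers, each marking 1 captured transcript), at least 200 genes and at most 20% mitochondrial UMIs, at least 1 UMI of Cd3e, Cd3d or Cd3g, at least 1 of Cd4, and none of Foxp3, Il17a, Il17f, Il22, Cd8a, Cd8b1, C1qa, C1qb or C1qc. The levels of those 13 genes are therefore given as a description only and support nothing.

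The tumours came from female C57BL/6 mice given the carcinogen AOM (azoxymethane) at 12.5 mg/kg, followed after 5 days by DSS (dextran sulphate sodium, which injures the colon lining) in drinking water for 5 days per cycle, at 2.5% in the first cycles and 2% in the last, with 16 days of plain water between. The labels give 2 additional DSS cycles, and the tumours were collected 30 days after the last DSS. The labels name 4 samples of 1 each: cells sorted as CD45+ (blood lineage) or CD45- from Egfr fl/fl mice, in which the receptor gene is floxed, and from Egfr ΔMYL mice, in which it is deleted in the myeloid lineage. All 4 received AOM and DSS, and which promoter drives the deletion is not stated in the sources used. The counts were deposited as 1 pooled matrix with 4 barcode suffixes that could not be matched to the labelled samples. Neither the genotypes nor the sorts were therefore compared, and the suffixes are called libraries 1 to 4.

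Helper CD4 T cells read peptides on MHC class II through the T cell receptor and act on other cells by secreted cytokines and by surface ligands, of which CD40 ligand licenses B cells and dendritic cells. Naive and recirculating helper cells carry TCF1 (Tcf7) and the egress receptor S1pr1, whereas antigen-experienced cells in tissues take on type 1 (Ifng), type 2 (Il4), type 3 (Il17a) or follicular helper (Bcl6, Il21) programmes. Regulatory T cells, which restrain the other T cells, are a CD4 lineage set by Foxp3.

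Levels are given in CPM, the UMIs of a gene summed over a group of cells and scaled to the group's total UMIs, with an exact Poisson 95% interval, and shares of cells carry an exact binomial one; both cover counting error only. With 1 matrix and no assigned replicate there is no test: a gene is called higher or lower when the groups differ at least 2-fold after adding 1 CPM and the higher group holds at least 10 UMIs. The members were set against all 2625 other Cd3-positive cells, and against 3 groups that are part of those 2625: 263 Foxp3-positive T cells (Cd4 and Foxp3 seen), 122 Il17 or Il22 positive T cells and 484 Cd8-positive T cells. All 4 comparisons share the members, so they are not independent of each other.

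Libraries 3 and 4 held nearly all members, 303 and 243 cells, which were 20.1% (18.1 to 22.2) and 14.9% (13.2 to 16.7) of their Cd3-positive cells. Library 1 held 1 member and library 2 none. Median depth was 4676 UMIs and 1632 genes per member (4819 UMIs in library 3 and 4361 in library 4), against 5319 UMIs in the other Cd3-positive cells, 5186 in Foxp3-positive, 5990 in Il17 or Il22 positive and 6366 in Cd8-positive T cells. The members summed to 2994370 UMIs. Across libraries 24 barcode sequences occurred more than once, and no member carried one.

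The rule sat close to the detection limit for many members. Of the 547, 254 (46.4%) held a single Cd4 UMI, 135 held 2 and 158 at least 3, and 12 held a single Cd3 UMI. On the outer side, 253 Cd3-positive cells were left out by Foxp3 alone, 63 of them by a single Foxp3 UMI, 30 by Il17a alone, 9 of them by a single UMI, and 32 by Cd8b1 alone, 26 of them by a single UMI. The 3 C1q genes, made by macrophages, left out a further 223 cells, 147 of them for 1 UMI. A cell without a Foxp3 or Il17a UMI at this depth may still express the gene. Requiring 2 Cd4 UMIs left 293 members.

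The name was checked on genes the rule did not use. Cd40lg, the CD40 ligand and the marker given for these cells, was seen in 174 members (31.8%) and in 2.27% of Cd8-positive T cells, whose median depth was higher. It was seen in 0 of 1473 B cells (median 4281 UMIs), which allows a share of up to 0.204% of cells with a UMI, and in 0 of 1425 epithelial cells. With every cell thinned to 1000 UMIs, Cd40lg was seen in 10.8% of 535 members (12 shallower cells left out), 1.04% of Cd8-positive, 3.82% of Foxp3-positive and 12.6% of Il17 or Il22 positive T cells. The T cell receptor constant genes Trac and Trbc2 were seen in 88.1% and 91.4% of members, and the kinase Lck in 75.9%. Trdc, the delta chain constant gene of gamma-delta T cells, was seen in 6 members. The label of CD4 T cells thus held for these markers, with the exceptions described under the sub-clusters. They do not set the members apart from every near group. Thinned, Cd40lg was seen no less often in Il17 or Il22 positive T cells. The T cell receptor and signalling list summed to 6519.6 CPM in members and 6472.4 in Foxp3-positive T cells.

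Ligands by which helper cells act were among the genes furthest above the other Cd3-positive cells. Cd40lg stood at 116 CPM (104 to 128) in members, at 115 in library 3 and 117 in library 4, and at 33.4 in the other Cd3-positive cells, a log2 fold of 1.76. It was lower in Foxp3-positive (23.3) and Cd8-positive (6.12) T cells and higher in the Il17 or Il22 positive ones (200.1). The 2 libraries gave levels within each other's counting error for this gene. Tnfsf8, the CD30 ligand, stood at 264.5 CPM in members (207.8 in library 3 and 338.4 in library 4) against 91.8 in the other Cd3-positive cells, 47.8 in Foxp3-positive and 55.3 in Cd8-positive T cells. Tnfsf11 (RANKL, the ligand of RANK) stood at 126 CPM (113.5 and 144 by library) against 45.2, 45.0 and 14.2. For both ligands the Il17 or Il22 positive cells were the highest group, at 403.8 CPM for Tnfsf8 and 369 for Tnfsf11, and 38.9% of the members' Tnfsf11 UMIs lay in 5 cells. The log2 folds of Tnfsf8 and Tnfsf11 over Foxp3-positive T cells were 2.44 and 1.47, went to 3.12 and 2.21 without library 3 and to 1.81 and 0.84 without library 4, and the last is under 2-fold.

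Of the 10 ligand genes with enough UMIs, 4 were at least 2-fold higher in members than in the other Cd3-positive cells and 1 was lower (median log2 fold 0.84). Over all 13074 genes tested, 0.727% were higher and 11.6% lower, with a median of -0.09. The 4 were Cd40lg, Tnfsf8, Tnfsf11 and Lta (lymphotoxin alpha, 29.4 against 10.8 CPM). The lower one was Tnf, at 27.1 against 99.9 CPM, with a log2 fold of -1.85. With fewer than 10 UMIs of each other lineage's marker list allowed per cell it was -0.30, and the part of other lineages' RNA in the difference was not tested. Against Foxp3-positive T cells 6 of 9 ligand genes were higher and none lower (median 1.78), where 4.71% of 9843 genes were higher and 8.17% lower (median -0.16). Against Cd8-positive T cells 4 of 9 were higher and none lower (median 0.86), where 4.46% of 10262 genes were higher and 5.21% lower. Against Il17 or Il22 positive T cells none of 9 was higher and 2 were lower (median -0.61), where 7.47% of 9602 genes were higher and 5.37% lower. These shares over all genes apply to each list count against these 4 groups below. Fasl, the death ligand, stood at 44.4 CPM in members and 3.89 in Foxp3-positive T cells. Ltb (lymphotoxin beta) was seen in 77.9% of members and was not 2-fold apart from any of the 4 groups.

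**Figure D1:**
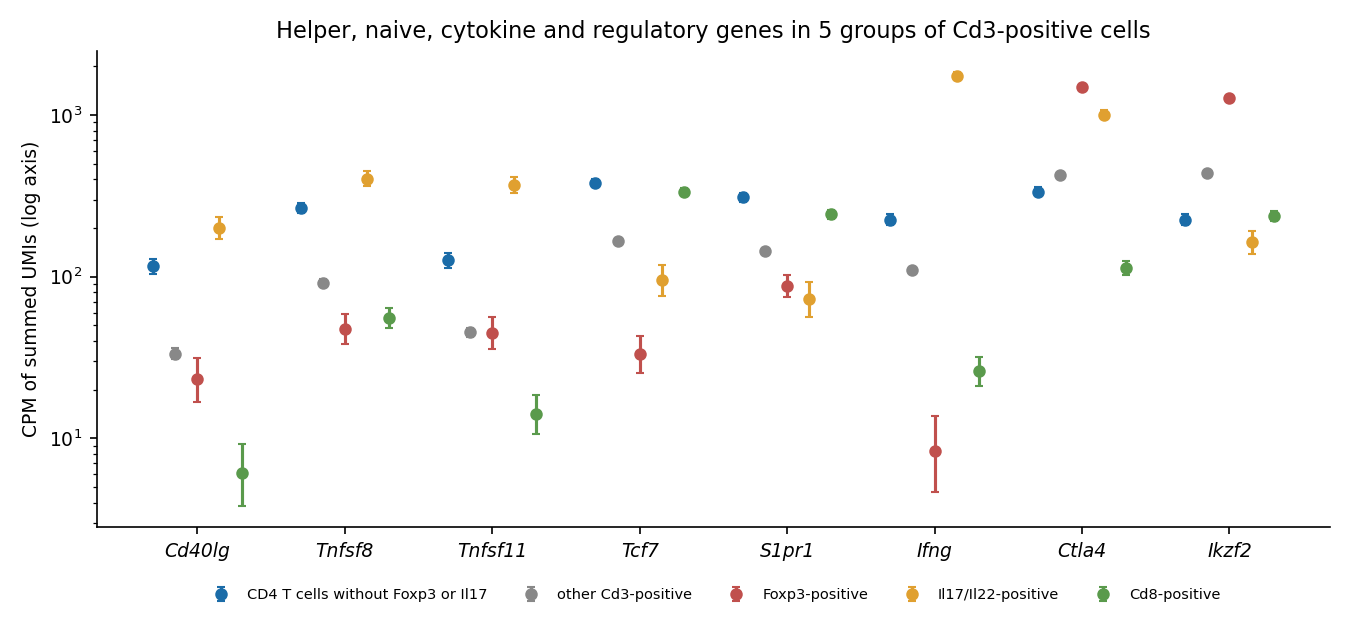
Levels of 8 helper, naive, cytokine and regulatory genes, in CPM with exact Poisson 95% intervals on a log axis, for the members and the 4 groups they were set against. Cd40lg stands at 116 CPM in members, 23.3 in Foxp3-positive and 6.12 in Cd8-positive T cells, and at 200.1 in Il17 or Il22 positive T cells.

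Of the T cell receptor complex and signalling genes, 2 of 18 were at least 2-fold higher in members than in the other Cd3-positive cells and none lower, and the list's median log2 fold was 0.63. The 2 were Cd28, the main costimulatory receptor (361 against 161 CPM, log2 fold 1.16), and Themis, a signalling adaptor needed for thymocyte selection (132 against 57.2 CPM). Cd28 was seen in 69.3% of members and stood at 352 CPM in library 3 and 373 in library 4. Its level was 237 CPM in Foxp3-positive, 178 in Il17 or Il22 positive and 135 in Cd8-positive T cells, so the members were the highest of the 5 groups. Among the other costimulatory receptors the order was different. Icos stood at 421 CPM in members, below the 833 of Foxp3-positive and the 779 of Il17 or Il22 positive T cells, and Tnfrsf4 (OX40) stood at 383 against 1620 in Foxp3-positive and 32.8 in Cd8-positive T cells. Over the 10 costimulatory receptors, 4 were lower and none higher than in Foxp3-positive T cells, and 6 were higher and none lower than in Cd8-positive T cells. Of all genes 8.17% were lower in the first comparison and 4.46% higher in the second.

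By the fixed naming rule the 12 genes with the highest log2 folds over the other Cd3-positive cells were Cd40lg, St8sia1, Tnfsf8, Tnfsf11, Tbc1d4, Themis, Nsg2, Tcf7, Trib2, Tmem65, Ramp3 and Cd28, and they ran from 1.76 to 1.16. St8sia1, a sialyltransferase, stood at 40.1 against 12.8 CPM, and Ramp3, a receptor activity modifying protein, at 240.5 against 106. Without library 3 the number of genes at least 2-fold higher went from 95 to 146. The 12 lowest were Apoe, Cxcl16, Cd63, Csf1r, Clec4n, Lyz2, H2-DMb1, Il1a, Tgfbi, Mpeg1, Pla2g7 and Fcer1g, most of them macrophage genes. The log2 folds of Cxcl16 and H2-DMb1 went from -4.49 and -3.80 to -5.20 and -4.45 without library 3. Apoe stood at 111.5 against 3141 CPM and Csf1r, the receptor of a macrophage growth factor, at 5.01 against 121.

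RNA of other lineages was part of the reference group, and the C1q rule removed cells with macrophage RNA from the members alone. The macrophage marker list summed to 143 CPM in members and 2143 in the other Cd3-positive cells (6 of 6 markers lower in members, none at 0 in either group), the neutrophil list to 1654 and 6505 (5 of 5 lower), and the erythroid list to 8.02 and 1054. In libraries 3 and 4 the macrophage list summed to 87.9 and 218 CPM in members and to 1392 and 2861 in the reference. The plasma cell list was high in both, at 4117 and 4591 CPM, and 1 member alone held 3413 plasma list UMIs. With fewer than 10 UMIs of each such list allowed per cell, 526 members remained, the genes at least 2-fold lower went from 1519 to 719, and the higher ones from 95 to 58. The log2 fold of Apoe then went from -4.80 to -0.31 and that of Lyz2 from -3.81 to -0.20. The other 3 reference groups, whose rules also bar C1q UMIs, held 281.6 CPM of the macrophage list (Foxp3-positive), 162 (Il17 or Il22 positive) and 69.5 (Cd8-positive).

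Genes of naive and recirculating T cells were high in the members. Tcf7, which encodes the transcription factor TCF1, was seen in 357 members (65.3%) and stood at 380 CPM, 484 in library 3 and 239 in library 4. Its level was 166.5 CPM in the other Cd3-positive cells, 33.3 in Foxp3-positive, 94.9 in Il17 or Il22 positive and 333 in Cd8-positive T cells. S1pr1, the receptor that lets T cells leave tissues, stood at 310.2 CPM in members (368 and 233 by library) against 145, 87.7, 72.9 and 243. In both genes the members and the Cd8-positive T cells were less than 2-fold apart. The naive list had 4 of 15 genes higher than in the other Cd3-positive cells, 10 of 15 higher than in Foxp3-positive (median log2 fold 1.38) and 10 of 15 higher than in Il17 or Il22 positive T cells (median 1.99), with none lower in any of the 3. Against Cd8-positive T cells none was higher and 2 were lower, with a median of -0.05.

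Some naive genes rested on library 3. Igfbp4, an insulin-like growth factor binding protein seen in resting T cells, stood at 358 CPM in library 3 and 21.3 in library 4, and its log2 fold over the other Cd3-positive cells went from 1.19 to -0.33 without library 3. Over Il17 or Il22 positive T cells Igfbp4 had a log2 fold of 4.99 (2.26 without library 3, 5.08 without library 4). Lef1, a partner of TCF1, stood at 334 and 107 CPM by library against 52.2 in Foxp3-positive T cells, and its log2 fold over them went from 2.16 to 1.40 without library 3.

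TCF1 and LEF1 bind the same core letters, so the bases before the starts of the naive list genes were read. RefSeq's table for GRCm38.p6 matched 12 of the 15 genes with 24 start sites, and each window was the 250 bases before the start. The letters CTTTGA, a TCF/LEF core read on both strands, were found at 4 of the 12 genes (33.3%) and in 4 of the 24 windows (16.7%), against 15.8% of 27025 genes and 13.8% of 32851 windows in the table. The letters CACCC, a core of the KLF factors to which Klf2 belongs, were found at 8 of the 12 genes (66.7%) and in 17 of the 24 windows (70.8%), against 54.5% of all genes and 52.0% of all windows. Neither motif lies within the other. Such matches are a description of these windows and not binding sites. The windows of Bach2, which had a TCF/LEF match, and of Igfbp4, which had a KLF match and was the naive list gene that differed most between the libraries, are shown 5′ to 3′. The capitals mark the matches, which read as the reverse complements TCAAAG and GGGTG on the printed strand. The Bach2 window precedes a start inside the annotated gene, which spans chr4:32238804-32586108, and the Igfbp4 window ends just before the gene. Neither window overlaps an annotated exon of its gene. They lie at chr4:32417185-32417434 and chr11:99040994-99041243, both on the plus strand.
Bach2: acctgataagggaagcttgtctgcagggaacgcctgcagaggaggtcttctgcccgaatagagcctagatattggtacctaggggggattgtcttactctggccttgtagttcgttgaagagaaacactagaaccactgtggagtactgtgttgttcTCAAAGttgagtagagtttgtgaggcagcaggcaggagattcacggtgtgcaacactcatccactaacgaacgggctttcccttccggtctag
Igfbp4: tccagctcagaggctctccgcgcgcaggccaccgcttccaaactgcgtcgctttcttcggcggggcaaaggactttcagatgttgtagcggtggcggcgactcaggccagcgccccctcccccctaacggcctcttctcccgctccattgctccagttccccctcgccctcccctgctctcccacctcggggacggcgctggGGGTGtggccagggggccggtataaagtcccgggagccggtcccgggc
Bach2, a repressor that keeps T cells in a resting state, stood at 46.4 CPM in members, 8.89 in Foxp3-positive and 50.6 in Cd8-positive T cells.

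Against Foxp3-positive T cells, the members differed in both directions. The 12 leading genes were Klrk1, Ifng, Igfbp4, Klrd1, Pde3b, Nsg2, Tcf7, Rflnb, Fasl, Gtf2i, St8sia1 and Bcl2. Klrk1 and Klrd1, receptors of cytotoxic cells, stood at 48.8 and 129 CPM in members and 0.555 and 5.55 in Foxp3-positive T cells. Klrk1 rested there on 1 UMI, so its fold is loose. Pde3b, a phosphodiesterase, stood at 98.9 against 6.66, and Bcl2, a survival factor, at 208.7 against 33.9. The 12 lowest were Il10, Msrb3, Flicr, Itgae, Rapsn, Mki67, Fabp5, Itgb8, Lrrc32, Pdgfb, Laptm4b and Mt2. Il10, an anti-inflammatory cytokine, stood at 2.34 against 87.2 CPM, Itgae (the CD103 integrin chain) at 17.7 against 171, and Flicr, a non-coding RNA next to Foxp3, at 1.34 against 21.7. When 1 library was left out, the folds of several of these genes moved by more than 1.5 times and kept their sign. Without library 3 the log2 folds of Klrk1, Klrd1, Ifng and St8sia1 went to 6.14, 5.63, 5.33 and 3.87, those of Igfbp4, Nsg2 and Rflnb to 2.46, 2.46 and 1.52, and those of Fabp5, Pdgfb and Rapsn to -2.20, -1.95 and -2.46. Without library 4 Klrk1, Klrd1 and St8sia1 went to 4.03, 2.29 and 2.04, Gtf2i and Rflnb to 3.34 and 4.43, and Mki67, Fabp5, Pdgfb and Rapsn to -3.85, -4.00, -4.99 and -4.03.

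The regulatory list was lower in members for 12 of 14 genes and higher for none (median log2 fold -2.40). That list belongs to the cells the rule set aside by Foxp3. Ctla4, an inhibitory receptor, stood at 335 CPM in members (253 in library 3, 442.5 in library 4) against 1488 in Foxp3-positive T cells, and Ikzf2, the factor Helios, at 225 (100.1 and 396) against 1279. Il2ra, the high-affinity IL-2 receptor chain, stood at 71.1 (47.2 and 104) against 426. All 3 stood higher in library 4 than in library 3. The log2 folds of Ikzf2 and Il2ra were -2.50 and -2.56, and went to -1.77 and -1.79 without library 3 and to -3.57 and -3.40 without library 4. Against Cd8-positive T cells 11 of 13 regulatory genes were higher in members and none lower. Type 2 genes had 4 of 6 lower than in Foxp3-positive T cells, and the proliferation list 8 of 10 lower (median -2.16). Mki67, a marker of cycling cells, stood at 24.4 CPM in members, 215.5 in Foxp3-positive and 82.0 in Cd8-positive T cells. Proliferation genes were lower for 6 of 10 both against the other Cd3-positive cells and against Cd8-positive T cells. Of all genes 11.6% and 5.21% were lower there. Without library 3 the log2 folds of Ccnb1 and Cdk1 over the other Cd3-positive cells went from -1.965 and -1.61 to -0.52 and -0.73, under 2-fold. That of Birc5 went from -2.26 to -1.575. Over Cd8-positive T cells Ccnb1 then went from -1.39 to -0.96 and Cdk1 from -1.57 to -1.47.

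Against Il17 or Il22 positive T cells the members were lower for 9 of 11 type 3 genes and higher for none (median log2 fold -1.97). That group was chosen by type 3 cytokines, and without library 4 it had 40 cells. Rora, a factor of type 3 cells, stood at 265 CPM against 687, and the IL-23 receptor gene Il23r at 1.67 against 34.7. The lowest of all was Trdc, at 2.67 against 477 CPM, followed by Abi3bp, Tcrg-C4, Zbtb16, Blk, Pde5a, Hbegf, Gldc, Il23r, Il1r1, Tcrg-C1 and Jcad. Trdc, Tcrg-C4 and Tcrg-C1 encode gamma-delta receptor chains and Blk is a kinase of gamma-delta T cells, and the rule for the reference group did not ask for Cd4. Trdc had a log2 fold of -7.02, and -3.85 without library 4, where Il1r1 and Tcrg-C1 went from -3.70 and -3.57 to -2.95 and -2.44. Without library 3 Blk, Gldc, Zbtb16 and Il1r1 lay further down, between -6.63 (Blk) and -4.64 (Il1r1), and Hbegf went from -4.06 to -3.40. The highest included Igfbp4, Jchain, Cd81, Il6ra, Rflnb, Als2cl, Slpi, Scml4, Elovl6, Actn1 and Izumo1r. Jchain is a plasma cell gene, and 95.8% of its UMIs in members lay in 5 cells. With fewer than 10 UMIs of each other lineage's list its log2 fold went from 4.52 to 0.18, and that of Slpi from 2.86 to 0.58. Leaving out library 3 took Igfbp4, Il6ra, Rflnb, Als2cl, Slpi, Elovl6, Actn1 and Izumo1r down to between 2.36 (Il6ra) and 1.19 (Actn1), and Cd81 from 3.01 to 3.76. Leaving out library 4 took Cd81 to 2.13 and Jchain and Elovl6 up to 5.25 and 5.65. Il6ra, the IL-6 receptor, stood at 52.4 against 5.79 CPM and Izumo1r (folate receptor 4) at 126 against 19.7.

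Against Cd8-positive T cells the leading genes were Cd40lg, Maf, Tnfrsf4, Tnfsf11, Ifng, Tnfrsf25, Nav2, Podnl1, Ttn, Tiam1, Rora and Tmem64. Maf, a transcription factor of helper and regulatory cells, stood at 289 CPM in members (237.5 and 357 by library) and 19.7 in Cd8-positive T cells. The log2 folds of Cd40lg and Maf were 4.03 and 3.81 (3.23 and 3.001 without library 3, 4.87 and 5.12 without library 4), and those of Tnfsf11 and Nav2 were 3.07 and 2.90 (2.41 and 1.95, then 3.73 and 4.45). The lowest were Xcl1, Bend4, Tcrg-C4, Cd7, Lcn4, Cd244, Crtam, Tcrg-C2, Tmem108, Cd160, Adgrg5 and Jaml. Xcl1, a chemokine that draws cross-presenting dendritic cells, stood at 0.668 against 360.3 CPM, and Cd7 at 24.7 against 475. The log2 fold of Xcl1 was -7.76 (-9.55 without library 3, -6.26 without library 4), and without library 3 Ttn, Adgrg5, Lcn4 and Tmem108 went to 1.94, -2.17, -1.38 and -4.17, while without library 4 Adgrg5 and Lcn4 went to -4.54 and -4.12. The cytotoxic list was lower for 8 of 13 genes and higher for none (median -1.05), whereas against Foxp3-positive T cells it was higher for 8 and lower for 2 (median 1.49). Part of the latter rested on library 4: without it the log2 folds of Gzma and Nkg7 went from 1.6 and 1.61 to -3.91 and 0.40. Those of Gzmk, Klrd1 and Klrk1 then stayed above 2-fold, at 2.88, 2.29 and 4.03. Ccl5, a chemokine of effector T cells, stood at 954 CPM in members, 2959 in Cd8-positive, 340 in Foxp3-positive and 279 in Il17 or Il22 positive T cells. Without library 4 its log2 folds over these 3 groups went from -1.63, 1.49 and 1.77 to -2.55, 0.63 and -0.22, and over the last it was 2.97 without library 3.

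**Figure D2:**
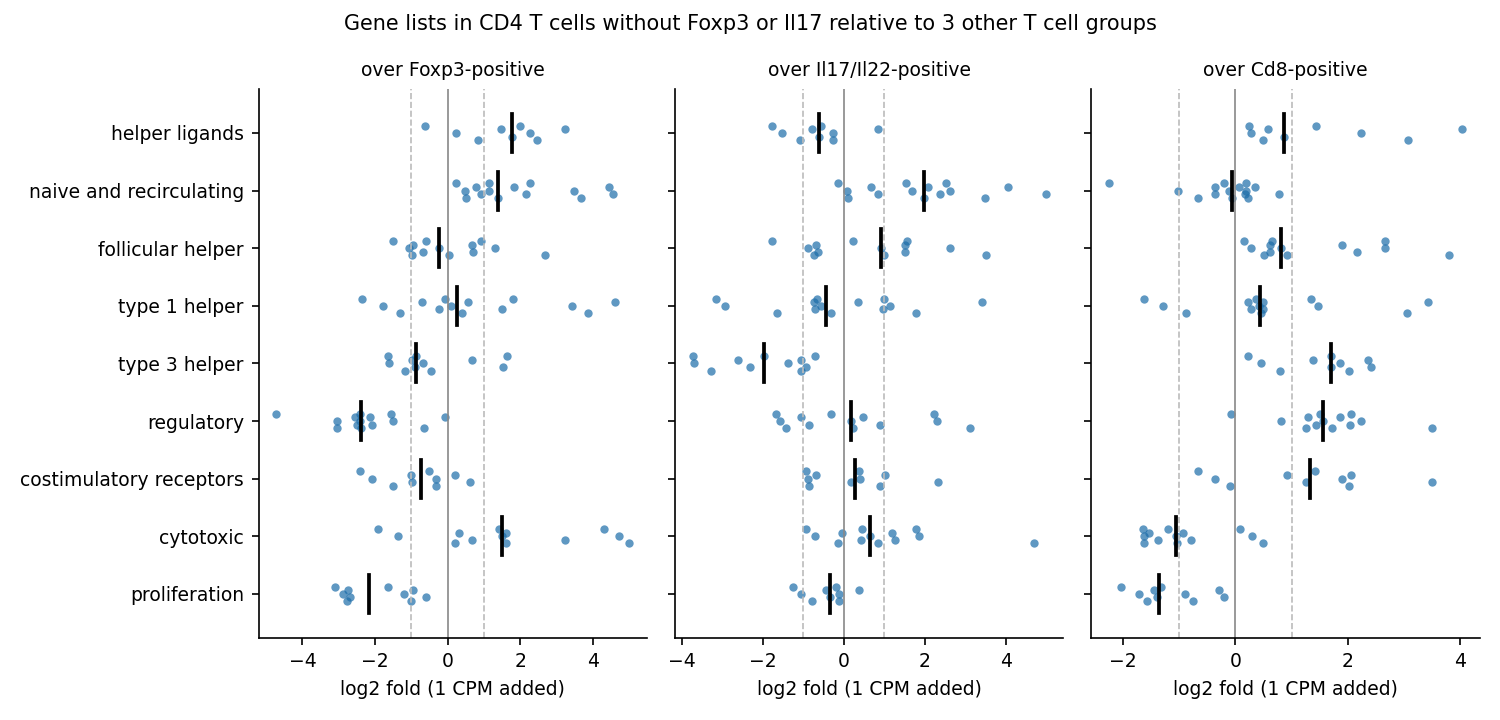
Log2 fold of the members over 3 T cell groups (after adding 1 CPM) for the genes of 9 lists, each point a gene, the black bar the list's median and the dashed lines 2-fold. The regulatory list's median stands at -2.40 against Foxp3-positive and the type 3 list's at -1.97 against Il17 or Il22 positive T cells.

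Cytokine genes were counted cell by cell. Ifng, the type 1 cytokine, was seen in 73 members (13.3%), in 7.92% of those in library 3 and 20.2% in library 4, and in 0.204% of B cells. Thinned to 1000 UMIs it was seen in 5.23% of members and 0.0684% of B cells. Its summed level was 225 CPM (209 to 243) in members, 244 in library 3 and 202 in library 4, against 8.33 in Foxp3-positive, 26.1 in Cd8-positive and 1745 in Il17 or Il22 positive T cells. The level and the share of cells thus ordered the libraries differently. In 5 cells lay 57.0% of the UMIs, and the part of these cells in that difference was not tested. Against the other Cd3-positive cells the log2 fold was 1.03, and it was 0.08 without library 3 and 3.66 without library 4. Against Il17 or Il22 positive T cells it was -2.95, and 0.63 without library 4. Against Cd8-positive T cells it was 3.06 (1.796 without library 3, 4.25 without library 4).

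Members with an Ifng UMI differed in other genes from those without, and were deeper (median 6439 against 4579 UMIs). Cxcr6, a chemokine receptor of tissue T cells, was seen in 68.5% of members with Ifng and 21.1% of those without. Tbx21, the factor T-bet of type 1 helper cells, was seen in 28.8% against 4.64%, and Cd40lg in 57.5% against 27.8%. All 12 members with a UMI of Csf2, the gene of the growth factor GM-CSF, also held Cxcr6. The part of depth in these shares was not tested. Of the 14 type 1 genes, 1 was higher in members than in the other Cd3-positive cells, 5 were higher and 3 lower than in Foxp3-positive, and 3 higher and 3 lower than in Il17 or Il22 positive T cells. In the same order 0.727%, 4.71% and 7.47% of all genes were higher, and 11.6%, 8.17% and 5.37% lower.

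Other cytokines were rare. Il2 was seen in 23 members, Il21 in 8 (7 of which held Cd40lg), Il10 in 5, and any of Il4, Il5 and Il13 in 5 (0.914%). Gata3, the type 2 factor, was nonetheless seen in 180 members (32.9%) and stood at 105.5 CPM against 188 in Foxp3-positive and 34.2 in Cd8-positive T cells, and Tbx21 was seen in 43 members and Bcl6 in 49. Areg, the amphiregulin gene of the EGF family, stood at 333 CPM in members (280.0 and 407 by library), 1357 in Foxp3-positive, 1814 in Il17 or Il22 positive and 7.23 in Cd8-positive T cells. It was seen in 49 members (8.96%), 5 of which held 57.7% of its UMIs, and in 0.611% of B cells. Its log2 fold over Foxp3-positive T cells was -2.02 (-1.23 without library 4), over Il17 or Il22 positive ones -2.44 (-0.29 without library 4) and over Cd8-positive ones 5.34 (4.62 without library 3, 6.31 without library 4). Hbegf, which encodes another EGF receptor ligand, stood at 1.00 CPM in members and 32.4 in Il17 or Il22 positive T cells, and no UMI of Egfr was seen in the members, which allows up to 0.548% of members with a UMI.

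Genes of memory and tissue residence stood above the Cd8-positive T cells and below the Foxp3-positive and the Il17 or Il22 positive ones by their medians. Of 16 such genes, 7 were at least 2-fold higher and 2 lower than in Cd8-positive T cells (median log2 fold 0.96), 2 higher and 5 lower than in Foxp3-positive (median log2 fold -0.49), and none higher and 5 lower than in Il17 or Il22 positive T cells (median -0.81). Cxcr6 stood at 234 CPM in members (132 and 372 by library), 240 in Foxp3-positive, 902 in Il17 or Il22 positive and 105 in Cd8-positive T cells. S100a4, a calcium-binding protein of activated T cells, stood at 442 CPM against 946, 831 and 139. Of 18 activation and early response genes none was higher and 4 were lower than in Il17 or Il22 positive T cells, among them Nr4a1, a gene induced by receptor signalling, at 136 against 345 CPM. Without library 4 the log2 fold of Nr4a1 went from -1.34 to -0.28 and that of Irf4, also on the list, from -1.65 to -0.38. That of Nr4a3 went from -1.63 to -1.32. Of 16 cytokine receptors, 2 were higher and 2 lower than in Foxp3-positive T cells, with Tgfbr2, a TGF-beta receptor chain, at 152 against 52.8 CPM. Of 14 interferon stimulated genes 3 were lower there and none higher. Over all genes 4.71% were higher and 8.17% lower than in Foxp3-positive T cells.

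Of the follicular helper list 1 of 14 genes was at least 2-fold higher in members than in the other Cd3-positive cells and none lower. That gene was Il21, whose log2 fold went from 1.57 to 0.24 without library 3, and 5 of the 8 cells with it held 81.2% of its UMIs. Of 13 genes, 6 were higher and 1 lower than in Il17 or Il22 positive T cells (median log2 fold 0.92). Cxcr5, the receptor that leads T cells to follicles, stood at 10.4 CPM in members, 17.5 in library 3 and 0.789 in library 4. Izumo1r stood at 181 and 51.3 CPM by library, and Slamf6, a receptor in contacts between T and B cells, at 208 and 141. The homing list differed in both directions: 2 of 20 genes were higher and 8 lower than in Foxp3-positive T cells. Ccr2 stood at 117 CPM in members against 545 there (log2 fold -2.21, and -2.95 without library 4). Of the inhibitory receptors, 4 of 11 were lower and 1 was higher than in Foxp3-positive T cells, where 8.17% of all genes were lower and 4.71% higher. Pdcd1 (PD-1) was seen in 21.2% of members and stood at 90.2 CPM, 46.0 in library 3 and 151 in library 4. For the 8 dissociation stress genes none was 2-fold apart from the other Cd3-positive cells, while 1 was higher than in Foxp3-positive and 2 were higher than in Cd8-positive T cells.

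The members of library 3 and of library 4 were also set against each other. Of 8745 genes tested between them, 384 (4.39%) were at least 2-fold higher in library 3 and 703 (8.04%) in library 4, with a median log2 ratio of library 3 to library 4 of -0.17. Naive genes were higher in library 3 for 10 of 15 and in library 4 for none (median 1.39), and follicular helper genes for 5 of 13 and 1 of 13. Cytotoxic genes were higher in library 4 for 9 of 13 and in library 3 for none (median -1.99), type 1 genes for 10 of 14 and none (median -1.27), regulatory genes for 8 of 13 and 1 of 13, and memory and tissue residence genes for 7 of 16 and none (median -0.88). T cell receptor and dissociation stress genes were 2-fold apart in none of 18 and none of 8. Cxcr6 was seen in 15.5% of members in library 3 and 42.0% in library 4. Neither library is assigned to a genotype or sort, neither has an assigned replicate, and the cause of these differences was not tested.

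**Figure D3:**
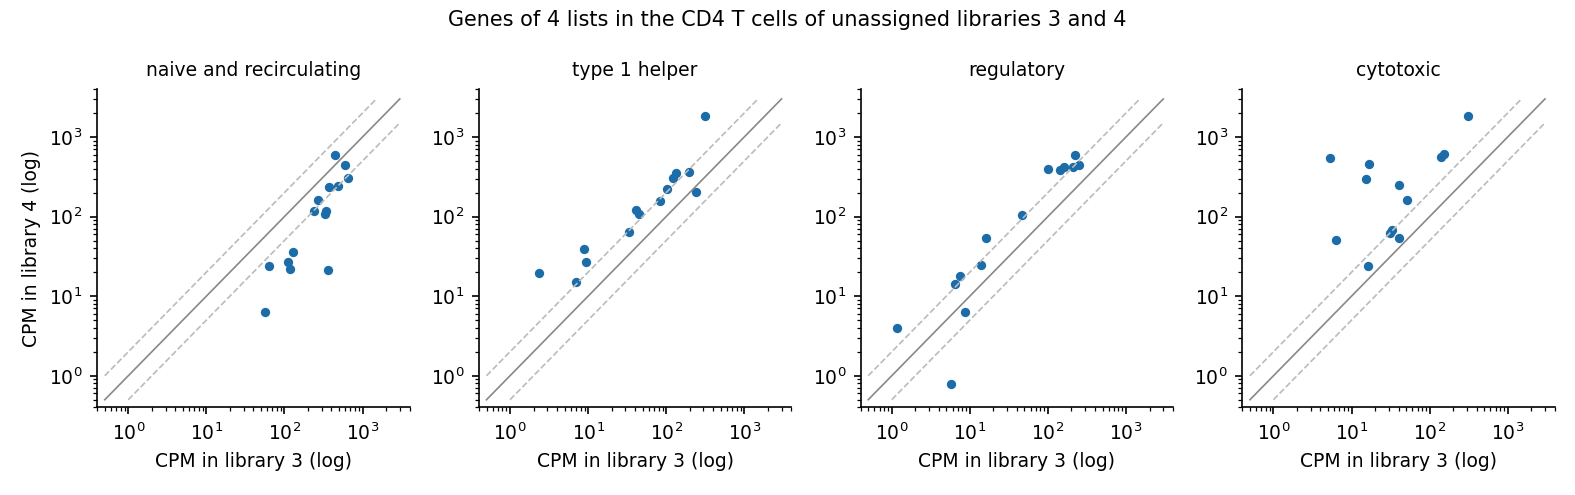
Level of each gene of 4 lists in the members of library 3 (x axis) and library 4 (y axis), in CPM on log axes, each point a gene, with the line of equal levels and dashed lines at 2-fold. The naive genes lie mostly below the line (Igfbp4 at 358 and 21.3 CPM) and the cytotoxic genes above it (Ccl5 at 314 and 1828).

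Clustering the members on their own gave 8 sub-clusters of 160 to 13 cells. The genes that define them were used to make them and are no finding. Sub-cluster 2, of 160 cells, was naive-like (with Igfbp4, Actn1, Ndrg3, Lef1 and Bach2 among its leading genes, and 13 of 15 naive genes at least 2-fold above the other members, where 2.71% of all genes were). It took 47.5% of the members of library 3 and 6.58% of those of library 4. Sub-cluster 1, of 142 cells, was led by Ramp3, Serpinb9, Itgb1, Serpinb6b, Gabpb1 and Cxcr3 and took 12.9% and 42.0%. Its type 1 list summed to 3689 CPM, against 2050 in the other members. Of the 14 genes 6 were higher, where 3.46% of all genes were, and 4 were lower. The share of all genes lower was not counted. The list summed to more in sub-clusters 3 (3847 CPM) and 8 (15246 CPM). Sub-cluster 6, of 62 cells, was led by Lmo4, Cxcr3, Krt83, Tmem5, Pdrg1 and Asb2 and took 9.24% and 14.0%. Of all genes 1.7% were at least 2-fold higher in it. It held 130 CPM of the gamma-delta marker list, which summed to 28.1 over all members. This came from 42 UMIs with a median of 0 per cell, and 1 of 2 genes tested was higher. Sub-cluster 8 stood near it, at 117 CPM of that list. Sub-clusters 1, 2 and 6 held most members, and neither 1 nor 6 was given a name.

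Sub-cluster 3, of 44 cells, was led by Igfbp7, Gstm5, Ermn, Ifng, AA467197 and Ppp1r14c. It had Ifng at 1440 CPM, seen in 63.6% of its cells, Areg at 1872, seen in 27.3%, Cxcr6 at 999.8 and Cd40lg at 272. All 9 proliferation genes tested were higher than in the other members (2133 against 584 CPM over the list), where 7.38% of all genes were. The 44 cells held 800 UMIs of that list with a median of 5.5 per cell, and Mki67 was seen in 25% of them. The sub-cluster's median depth was 7340.5 UMIs. Sub-cluster 4, of 56 cells, was follicular-helper-like (Izumo1r, Art2b, Lrig1, Bcl6, Ptpn11 and Igf1r, with 9 of 12 follicular genes higher, where 2.96% of all genes were) and took 16.2% of library 3 and 2.88% of library 4. Sub-cluster 5, of 50 cells, was regulatory-like without a Foxp3 UMI (Pcsk1, Il1rl1, Klrg1, Itgae, Ikzf2 and Cd81, with 11 of 13 regulatory genes higher, where 6.28% of all genes were). It had Ikzf2 at 2180 CPM, Ctla4 at 1025 and Areg at 1178, Cd40lg at 17.0 and no Ifng UMI, and its median depth of 3320.5 UMIs was the lowest of the 8. Whether these cells lack Foxp3 or missed it by depth was not tested. Sub-cluster 8, of 13 cells all in library 4, was cytotoxic-like (Fcrl6, Klre1, Klri2, Rasd2, Spp1 and Setbp1, with 12 of 13 cytotoxic genes higher, where 3.13% of all genes were). As all its cells came from 1 library it may be that library rather than a type. Over all members Gzma, a granzyme gene, had 97.3% of its 707 UMIs in 5 cells, and 485 in 1 cell. It stood at 5.24 CPM in library 3 and 550.5 in library 4. With fewer than 10 UMIs of each other lineage's list its log2 fold over Foxp3-positive T cells went from 1.6 to -0.043.

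Sub-cluster 7, of 20 cells, went against the label. It was led by Cd79a, Mzb1, Jchain, Ly6d, S100a8 and Retnlg, had the highest median depth (9714 UMIs) and stays without a name. Summed over its cells it held 34947 CPM of the plasma cell list, 13763 of the neutrophil list and 1534 of the B cell list. In that order the median UMIs per cell were 3, 1 and 19.5, so the first 2 sums rested on few cells. Over all members 5 cells held 95.8% of the Jchain UMIs and 5 held 93.6% of the S100a8 UMIs. Of all genes 3.73% were at least 2-fold higher in it. Doublets were not removed from the members, since the caller used marked 0.0704% of all cells, too few for it to have worked. Of the 625 highest-scoring cells, 14 were members.

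**Figure D4:**
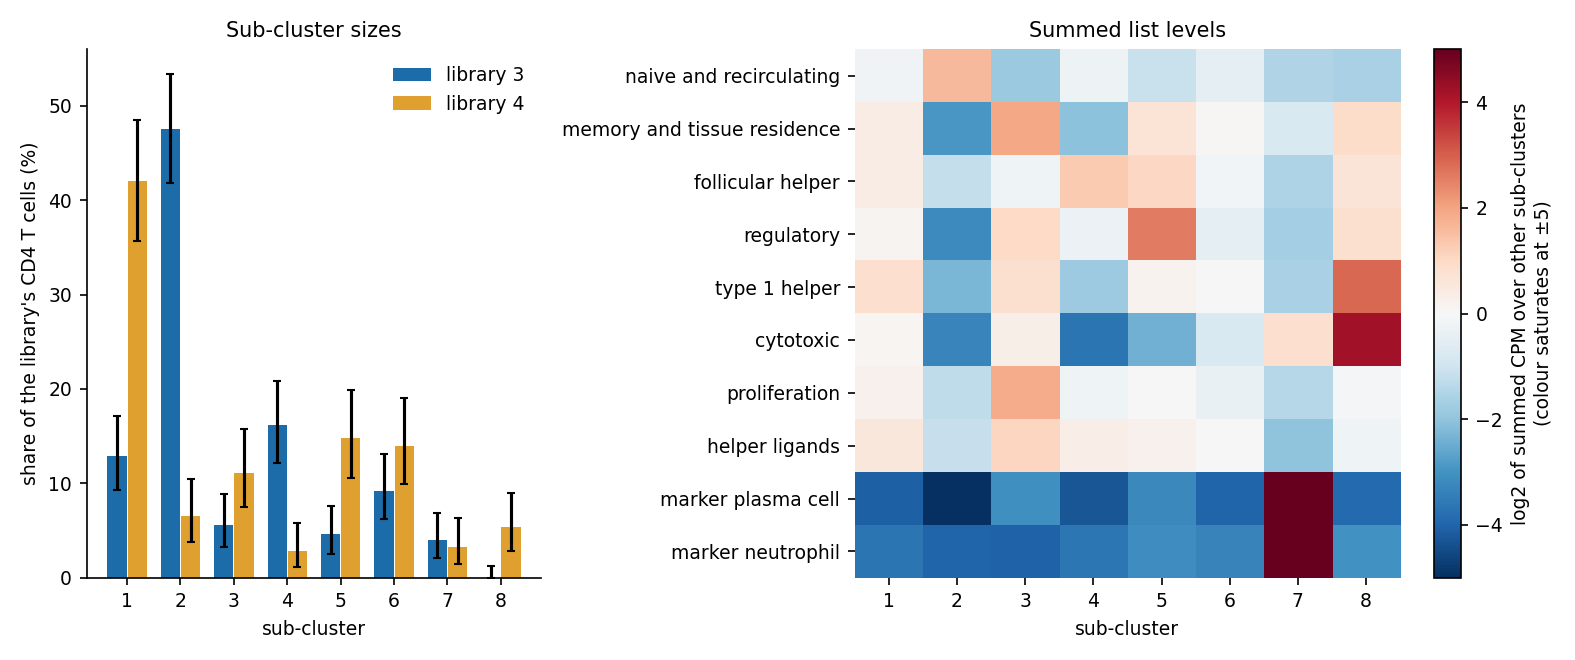
Left, the share of each library's members in each of the 8 sub-clusters, in percent with exact binomial 95% intervals; right, the summed CPM of 10 gene lists in each sub-cluster relative to the other sub-clusters, on a log2 colour scale. Sub-cluster 2 holds 47.5% of library 3 and 6.58% of library 4, sub-cluster 1 holds 12.9% and 42.0%, and the plasma cell and neutrophil lists are high in sub-cluster 7 (34947 and 13763 CPM).

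The libraries were also set side by side within sub-clusters 1 and 6, which held at least 20 cells of each. In sub-cluster 1 the naive list summed to 3620 CPM in library 3 and 3219 in library 4, the type 1 list to 3447 and 3808, the regulatory list to 1883 and 2143, the cytotoxic list to 2335 and 2936 and the interferon stimulated list to 2011 and 3031. In sub-cluster 6 the naive list summed to 3037 and 2497 CPM and the type 1 list to 1972 and 2785.

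Variable genes of the T cell receptor beta chain were seen in 109 members (19.9%), and 19 such genes occurred. These segments lie towards the 5′ end of the transcript, away from the end that was sequenced. The most used were Trbv13-1 in 17 cells (15.6% of the 109), Trbv12-2 in 12, Trbv19 in 11 (10.1%), Trbv2 in 10 (9.17%) and Trbv3 in 9 (8.26%). Among the 505 other Cd3-positive cells with a beta variable gene Trbv12-2 took 11.1% and Trbv19 12.1%. Trbv13-1 was seen in 3 of 38 such members in library 3 and 14 of 70 in library 4, Trbv12-2 in 9 and 3, and Trbv19 in 1 and 10. Alpha variable genes were seen in 121 members and spread over 54 genes. Counts of this size leave the order of the 5 most used genes open to counting error.

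In the reference annotation of GRCm38 Cd40lg lies at chrX:57212143-57224042 on the plus strand, Ifng at chr10:118441046-118445892 on the plus strand and Tcf7 at chr11:52252371-52283014 on the minus strand. All 3 are protein-coding, and the counts are of reads near the 3′ end and do not tell isoforms apart.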

How the data were processed

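Single cells of sorted colon tumour suspensions were captured with 10x Genomics 3′ V3 chemistry, per the labels' protocols. The deposited matrix holds whole UMI counts that were not normalized. Per the submitters' processing notes, the authors' tools include Cell Ranger 3.0.2 and the build is mm10. The labels describe both a single well for the sorted cells and a separate index per sample. The matrix held 31053 genes, 18026 barcodes and 129529250 UMIs. Libraries 1 to 4 had 594, 1706, 4516 and 7382 cells with median depths of 4507, 3390.5, 4932.5 and 5177 UMIs after the limits of 500 UMIs, 200 genes and 20% mitochondrial UMIs.

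Counts were summed per group of cells, scaled to CPM and compared as log2 folds after adding 1 CPM, over all genes with at least 10 UMIs in either group, leaving out the 13 rule genes. Exact 95% intervals cover counting error only. No library was assigned to a labelled sample, so no test was made and libraries were not averaged. The script was tested on simulated data. Genes named were those of 19 role lists and 13 marker lists (286 genes), the 12 highest and 12 lowest per comparison among called genes seen in at least 10% of the cells of the higher group and of the same sign in every library with at least 50 cells of each group, the 6 leading genes per sub-cluster and the 5 most used Trbv genes. Other genes were chosen from these lists. A few genes that this rule names are not reported here. The members and lists were chosen with earlier results of these data known. Sub-clusters used 1500 variable genes, 20 components, 15 neighbours and Leiden resolution 0.7 (scanpy 1.11.5, igraph 0.11.9). Scrublet called 10 of 14198 cells, so an alternative removed the 625 highest-scoring. Other alternatives varied the UMI and mitochondrial limits, the least Cd4 and Cd3 UMIs, the CPM added, thinning, weighting, other-lineage UMIs and the library left out. Gene positions were taken for 379 of 381 genes from the GRCm38 annotation, and promoters from RefSeq GRCm38.p6. Python 3.11.15, numpy 2.4.6, scipy 1.17.1 and pandas 2.3.3 were used.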

Additional observations from a re-analysis of the deposited data

How the results depend on the processing

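No paired analysis was possible because each labelled group has 1 sample and no library could be assigned to one. The groups of cells compared come from the same libraries, and values without each library are given. The share of Cd3-positive cells that were members was 17.2%. It became 11.2% with at least 2 Cd4 UMIs. That setting took cells with a single Cd4 UMI out of all Cd3-positive cells, and left 293 members and 2325 others. The share was 19.5% with at least 2 Cd3 UMIs and 21.4% with no UMI of any other-lineage list. It was 19.9% with fewer than 10 UMIs of each such list (an alternative chosen after seeing the data), and 14.7% to 19.7% when 1 library was left out. Genes higher than in the other Cd3-positive cells went from 95 to 56 with at least 2 Cd3 UMIs, 23 with 10 CPM added, 58 with at least 30 UMIs, 58 with fewer than 10 lineage UMIs and 146 without library 3. Genes lower went from 1519 to 789 with no lineage UMI, 439 with 10 CPM added and 719 with fewer than 10 lineage UMIs. Genes apart from Foxp3-positive T cells went from 1268 to 719, 429 and 721 with no lineage UMI, 10 CPM added and at least 30 UMIs, those apart from Cd8-positive T cells from 993 to 610, 248 and 582 under the same settings, and those apart from Il17 or Il22 positive T cells from 1233 to 390 and 619 with 10 CPM added and at least 30 UMIs. Resolution 0.4 gave 5 sub-clusters in place of 8. Allowing no lineage UMI left 51 members, 19 Foxp3-positive, 3 Il17 or Il22 positive and 42 Cd8-positive T cells.

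Over single genes, 10288 values stayed within the counting interval, 2764 moved and 23 that were called as reported changed sign. Among the other values 670, of genes under 2-fold apart as reported, also took the other sign. The 23 were as follows on the log2 scale. Over the other Cd3-positive cells, Ccl4 became 0.076 with at least 2 Cd3 UMIs and 0.34 with fewer than 10 lineage UMIs and Igfbp4 -0.33 without library 3. Over Foxp3-positive T cells, Gzma became -3.26 with no lineage UMI, -0.13 without the 625 cells scored highest for doublets, -0.043 with fewer than 10 lineage UMIs and -3.91 without library 4, and Klf2 -0.14 with no lineage UMI. Over Il17 or Il22 positive T cells with no lineage UMI, of which only 3 remained, Batf became 6.53, Gata3 -0.24, Ifng 6.73 and Nr4a1 0.39. In the same comparison Gzma became -0.27 and Mki67 0.51 with cells thinned to 1000 UMIs, Ccr10 -0.64 and Gzma -0.28 with each cell weighted equally, Gzma -0.49 without the doublet-scored cells and -0.46 with fewer than 10 lineage UMIs, and Ccl5 -0.22, Ifng 0.63, Il21 3.09 and Mki67 0.63 without library 4. Over Cd8-positive T cells Ccr9 became 0.085 without library 3. The cause was not tested, apart from the smaller number of cells or genes that these settings leave by construction. A gene with under 10 UMIs in both groups under a setting has no value there. Counting intervals cover no spread between mice, and depth limits what a cell without a UMI shows.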
